A study of Homo sapiens with 12 samples.

Results

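Collagens are the proteins of 3-stranded helices that form the fibres, sheets and filaments of the extracellular matrix, and their genes were followed here in cultured human heart muscle cells. The members are the protein-coding genes of the deposited table whose symbol is COL, a type number, A and a chain number. There were 44 of them among 78894 genes, 11 fibrillar, 8 of the basement membrane and 25 of other kinds. In 30 members the 12 libraries together held at least 20 counts, and in 14 they did not. All groups share 1 source of cells, cardiomyocytes differentiated from WTC-mEGFP-ACTN2-cl85 and enriched with lactate. This is a single clone of the established WTC stem cell line, in which mEGFP is joined to the end of alpha-actinin-2 on 1 ACTN2 allele. Cultures received 10 nM endothelin-1 together with 16 µM sacubitrilat (called the combined group), 10 nM endothelin-1 alone, 16 µM sacubitrilat alone, or vehicle, given in the labels as DMSO, each for 48 h and with 3 separate cultures a group. Endothelin-1 is a vasoconstrictor peptide that enlarges cardiomyocytes, and sacubitrilat blocks neprilysin, an enzyme that breaks down small peptide hormones. The series sets out to compare endothelin-1 with vehicle, and endothelin-1 plus sacubitrilat with endothelin-1.

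Collagen chains are hydroxylated and glycosylated in the endoplasmic reticulum, wound into a triple helix by chaperones, secreted, trimmed by proteinases and crosslinked by lysyl oxidases. Fibrillar types I, III and V build the interstitial fibres that give heart muscle its stiffness, and their excess is the hallmark of fibrosis. Type IV forms the network of the basement membrane that surrounds each cardiomyocyte, and type VI forms beaded filaments beside it. In the heart fibroblasts are the main source of fibrillar collagen.

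Library totals differed between groups, and each comparison of collagen levels is given with that in view. The combined libraries held 87281 to 158791 counts, the endothelin-1 libraries 1473744 to 1781653, the sacubitrilat libraries 1268308 to 1953122 and the vehicle libraries 80844 to 316932. Summed totals of endothelin-1 were 8.75 times those of vehicle and 13.1 times those of the combined group, whereas endothelin-1 against sacubitrilat had a ratio of 1.09 and the combined group against vehicle 0.67. A count of 0 allowed up to 1.54 CPM (counts scaled to the library total) in the library with most counts and 37.1 CPM in that with fewest, from 3 counts per library and for counting error only. All 13 cardiomyocyte markers were detected in each group. For the 6 single-compound libraries, 1 line of the description states the other compound than all their other labels do. Groups were set by those other labels; if that line held, the sign of endothelin-1 against sacubitrilat would turn and the other single-compound values would change places.

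Collagens took about the same share of both deep groups and a smaller, more variable share of both shallow ones. They made up 0.306, 0.644 and 0.616% of all counts in the combined libraries, 0.967, 0.947 and 1.04% with endothelin-1, 0.993, 0.97 and 1.04% with sacubitrilat, and 0.719, 0.333 and 0.585% with vehicle. None of the combined or vehicle libraries reached the lowest library of either single-compound group. Counts were concentrated in few genes: COL1A1 and COL3A1 held 59.2% of all collagen counts, the 5 leading members 79.1% and the 11 leading members 95.4%. The fibrillar class took 76.6%, the basement membrane class 15.2% and the other members 8.28%. The libraries count transcripts at their 3′ ends, so these are shares of counts and were not divided by transcript length.

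**Figure D1:**
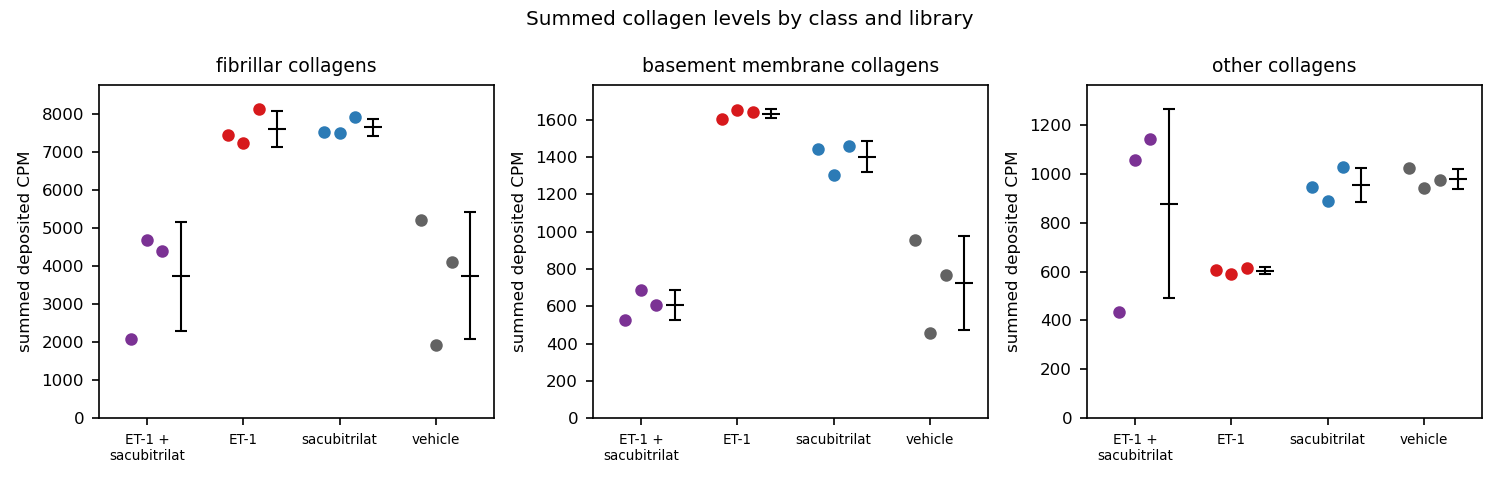
Summed CPM of the fibrillar, basement membrane and other collagen classes in each library (points, 3 per group), with the group mean and SD as bars on a linear axis from 0. In the fibrillar and basement membrane panels the endothelin-1 and sacubitrilat points lie above all combined and vehicle points; in the panel of other collagens endothelin-1 lies at 588.3 to 616.2 CPM, below all sacubitrilat and vehicle points.

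The summed fibrillar level averaged 3735 ± 1426 CPM in the combined group, 7610 ± 468.6 with endothelin-1, 7654 ± 232.2 with sacubitrilat and 3751 ± 1672 with vehicle (SD, n = 3 in each group). The basement membrane sum averaged 607.0 ± 79.7 CPM in the combined group, 1632 ± 23.85 with endothelin-1, 1402 ± 85.02 with sacubitrilat and 727.1 ± 251.6 with vehicle. Both sums therefore stood highest in the single-compound groups, without overlap with the combined or vehicle libraries. The remaining members summed to 878.2 ± 385.7 CPM in the combined group, 603.1 ± 14.01 with endothelin-1, 953.8 ± 68.83 with sacubitrilat and 978.4 ± 41.39 with vehicle. Without COL6A2 the last sum averaged 192.7 CPM in the combined group, 424.3 with endothelin-1, 579.6 with sacubitrilat and 295.9 with vehicle, so the order of the groups was not the same. Within the shallow groups the fibrillar sum followed the library total: it was 2097, 4698 and 4409 CPM in the combined libraries of 87281, 158791 and 134950 counts, and 5216, 1930 and 4108 CPM in the vehicle libraries of 316932, 80844 and 170644 counts. Whether the library total had a part in the class sums was not tested. The fibrillar share of collagen counts, which does not depend on scaling between libraries, was 71.0 ± 2.25% in the combined group, 77.3 ± 0.958% with endothelin-1, 76.5 ± 0.792% with sacubitrilat and 66.9 ± 7.81% with vehicle. With 3 libraries against 3 a two-sided exact permutation test cannot go below p = 0.1, so none of these sums or shares could pass a threshold of 0.05, and over 72 comparisons made, 36 of these sums and shares and 36 of the chain shares given further on, the lowest Benjamini-Hochberg adjusted p was 0.18. In bulk libraries, fewer cells of a collagen-making type and less collagen RNA per cell cannot be told apart.

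Gene by gene, endothelin-1 cultures had higher levels of most abundant collagens than vehicle cultures, with COL6A2 as the exception among called members. Of the 22 members with enough counts to be tested, 12 passed an adjusted p of 0.05 in edgeR's quasi-likelihood test, 11 higher and 1 lower with endothelin-1, where 23.2% of all 11203 tested genes passed (11% higher, 12.2% lower). Their median log2 fold change was 0.86, against 0.10 over all tested genes. Of the 22, 17 had a positive and 5 a negative log2 fold change. By class, 7 of 9 fibrillar and 3 of 5 basement membrane members rose and none fell, and of 8 other members COL6A1 rose and COL6A2 fell.

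Cultures given both compounds had lower collagen levels than those given endothelin-1 alone. Here 15 of the 22 tested members passed, 14 lower and 1 higher, where 34.4% of all tested genes passed (17.8% lower, 16.6% higher), and the median log2 fold change was -1.14 against -0.23 over all genes. The fallen members comprised 7 of 9 fibrillar, 4 of 5 basement membrane and 3 of 8 other collagens, and the called one that rose was again COL6A2. Over all 22, 18 log2 fold changes were negative and 4 positive. The same endothelin-1 libraries stand in this comparison and the one before, and in both of them deep libraries are set against shallow ones.

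Sacubitrilat against vehicle gave 10 called members of 22, 9 higher and COL6A2 lower, where 19.9% of all tested genes passed (8.68% higher, 11.2% lower). The combined group against sacubitrilat gave 11, 10 lower and COL6A2 higher, where 35% passed (17.8% lower, 17.2% higher). Both of these also compare deep with shallow libraries. The interaction, in which the difference between the combined group and sacubitrilat is set against that between endothelin-1 and vehicle, gave 15 called members, 14 lower and COL6A2 higher, where 46.1% of all tested genes passed (26% lower, 20.1% higher), but it sets all 6 shallow libraries against all 6 deep ones and so cannot be told apart from the library total.

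The combined group against vehicle, which sets shallow libraries against shallow ones, gave no called collagen in edgeR, where 0.179% of all tested genes passed (0.0803% higher, 0.0982% lower). At an unadjusted p under 0.05 there were 5 members, COL6A1, COL6A3, COL18A1, COL4A5 and COL5A2, all with a negative log2 fold change, where 11.6% of all tested genes had such a p. At an adjusted p of 0.05 DESeq2 called 1 member, where 1.39% of all tested genes passed, and limma-voom 0, where 0.0893% passed. The member nearest the threshold was COL6A1, at -2.11 ± 0.53 (log2 fold change ± SE; edgeR adjusted p = 0.0776). It passed without a filter (0.0139), in DESeq2 (0.0053), without the 2 libraries under 100000 counts (0.0264) and without vehicle replicate 2 (0.00396), and its adjusted p reached 0.567 among 20 alternatives. The 95% intervals were wide even for the fibrillar members with the most counts, from -0.68 to 0.70 on the log2 scale for COL1A1 and from -0.70 to 0.55 for COL3A1.

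Endothelin-1 against sacubitrilat, the comparison of deep libraries with deep ones, gave 8 called members in edgeR, 4 higher and 4 lower, where 11.2% of all tested genes passed (6.44% higher, 4.78% lower). The median over the 22 members was 0.03, against -0.01 over all genes. COL4A1, COL5A1, COL11A1 and COL7A1 were higher with endothelin-1, and COL6A2, COL6A1, COL2A1 and COL26A1 were lower. The count depended on the fit: it was 15 of 23 (8 higher, 7 lower) when these 2 groups were fitted alone, 14 of 25 without the 2 libraries under 100000 counts, 2 of 22 in limma-voom (COL4A1 and COL6A2) and 0 of 11 after thinning every library to 80000 counts. The share of all tested genes called moved with it, at 17.6% in the first of these fits, 14.4% in the second, 4.21% in limma-voom and 0.996% after thinning. With the replicate number as a block, COL2A1 (adjusted p = 0.113; range over 20 alternatives 0.000169 to 0.899) and COL7A1 (adjusted p = 0.0599; range over 13 alternatives 0.0217 to 0.180) no longer passed in edgeR.

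**Figure D2:**
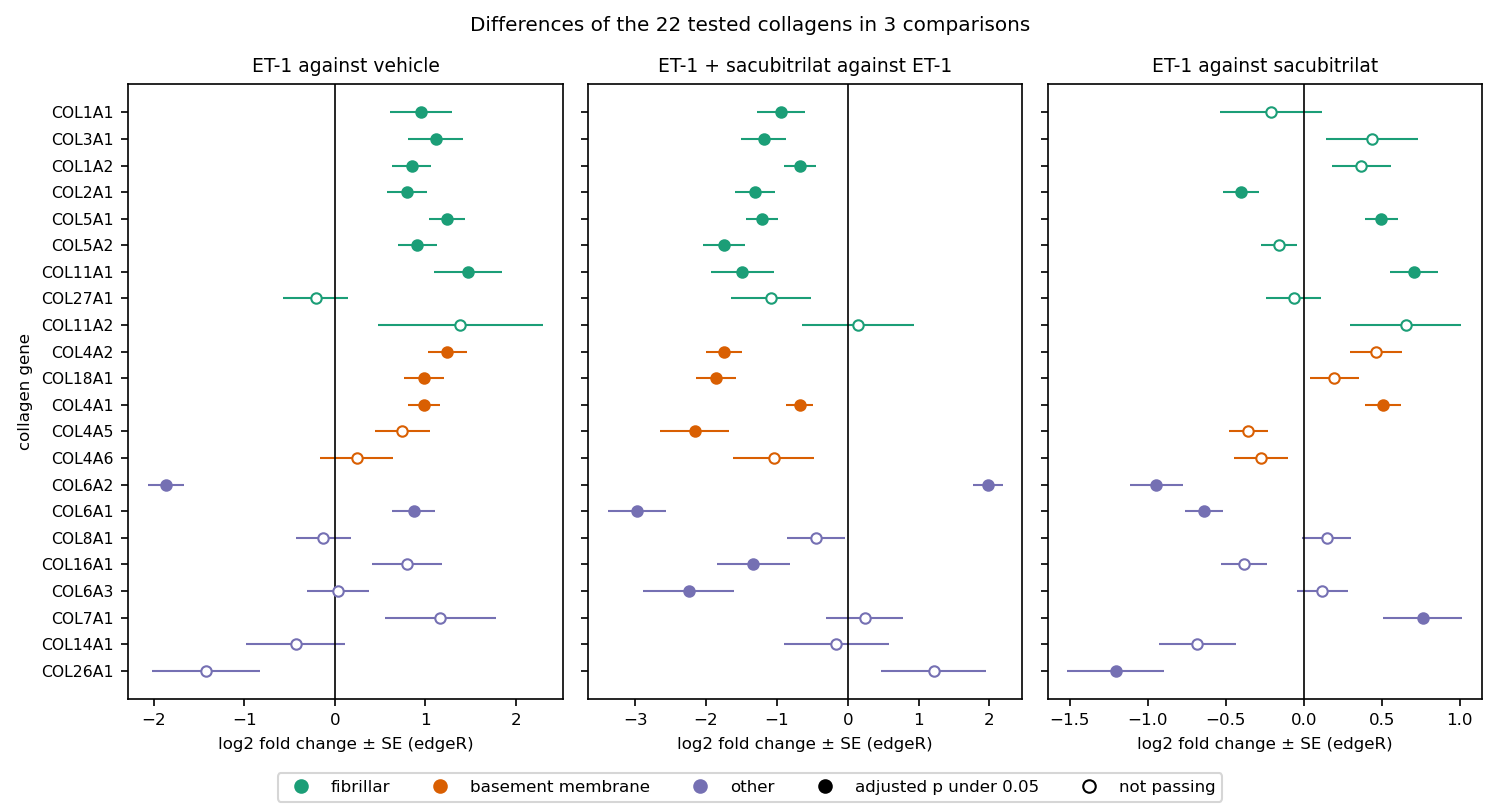
Log2 fold change with its standard error (edgeR) of the 22 tested collagens in 3 comparisons, ordered by class and by counts; filled points passed an adjusted p of 0.05, and each panel has its own x axis. Fibrillar and basement membrane members lie mostly right of 0 in endothelin-1 against vehicle and left of 0 in the combined group against endothelin-1, while COL6A2 lies at -1.86 and 1.98.

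Types I and III, whose chains make up most fibrillar collagen of the heart, led the class. COL1A1 (ENSG00000108821, chromosome 17, 50183289 to 50201632 on GRCh38, minus strand), which encodes the alpha 1 chain of type I, had 481.2, 1959 and 2082 CPM in the combined libraries, 2879, 2701 and 3159 with endothelin-1, 3624, 3555 and 3794 with sacubitrilat, and 2127, 766.9 and 1617 with vehicle. Sacubitrilat libraries were the highest and did not overlap with any other group, and the shallowest library of the combined and of the vehicle group was the lowest of its group. COL1A1 was higher with endothelin-1 than with vehicle, at 0.95 ± 0.34 (edgeR adjusted p = 0.0379), but this call was lost with the replicate block (adjusted p = 0.0569), in DESeq2 (0.102), after thinning (0.0625) and when any 1 of 8 libraries was left out, in a range of adjusted p from 0.000184 to 0.118 over 20 alternatives. It was lower in the combined group than with endothelin-1, at -0.94 ± 0.34 (edgeR adjusted p = 0.0310), a call that DESeq2 (0.0950), thinning (0.0671) and 7 of the left-out libraries took away, in a range from 0.000216 to 0.122.

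COL3A1 (ENSG00000168542, chromosome 2, 188974320 to 189012746, plus strand), the single chain of type III, had 870.8, 1606 and 1393 CPM in the combined libraries, 2837, 2760 and 3131 with endothelin-1, 2225, 2319 and 2426 with sacubitrilat, and 2019, 531.9 and 1401 with vehicle. Endothelin-1 libraries were above all others. It rose by 1.11 ± 0.31 on the log2 scale with endothelin-1 against vehicle (edgeR adjusted p = 0.00699) and fell by 1.19 ± 0.31 in the combined group against endothelin-1 (adjusted p = 0.00321). COL1A2 (chromosome 7, 94394561 to 94431232, plus strand), the alpha 2 chain of type I, had 527, 762 and 585.4 CPM in the combined libraries, 948, 977.8 and 1028 with endothelin-1, 837.3, 834.6 and 802.8 with sacubitrilat, and 615.3, 383.5 and 632.9 with vehicle. It was likewise highest with endothelin-1, by 0.85 ± 0.22 against vehicle (edgeR adjusted p = 0.00362), and the combined group stood at -0.67 ± 0.22 against it (adjusted p = 0.0176), a call lost when any 1 endothelin-1 library was left out (adjusted p up to 0.0884 over the alternatives). An annotated antisense gene overlaps COL1A2, and since the strand setting of the counting is not given, reads of the gene and its antisense partner cannot be told apart.

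**Figure D3:**
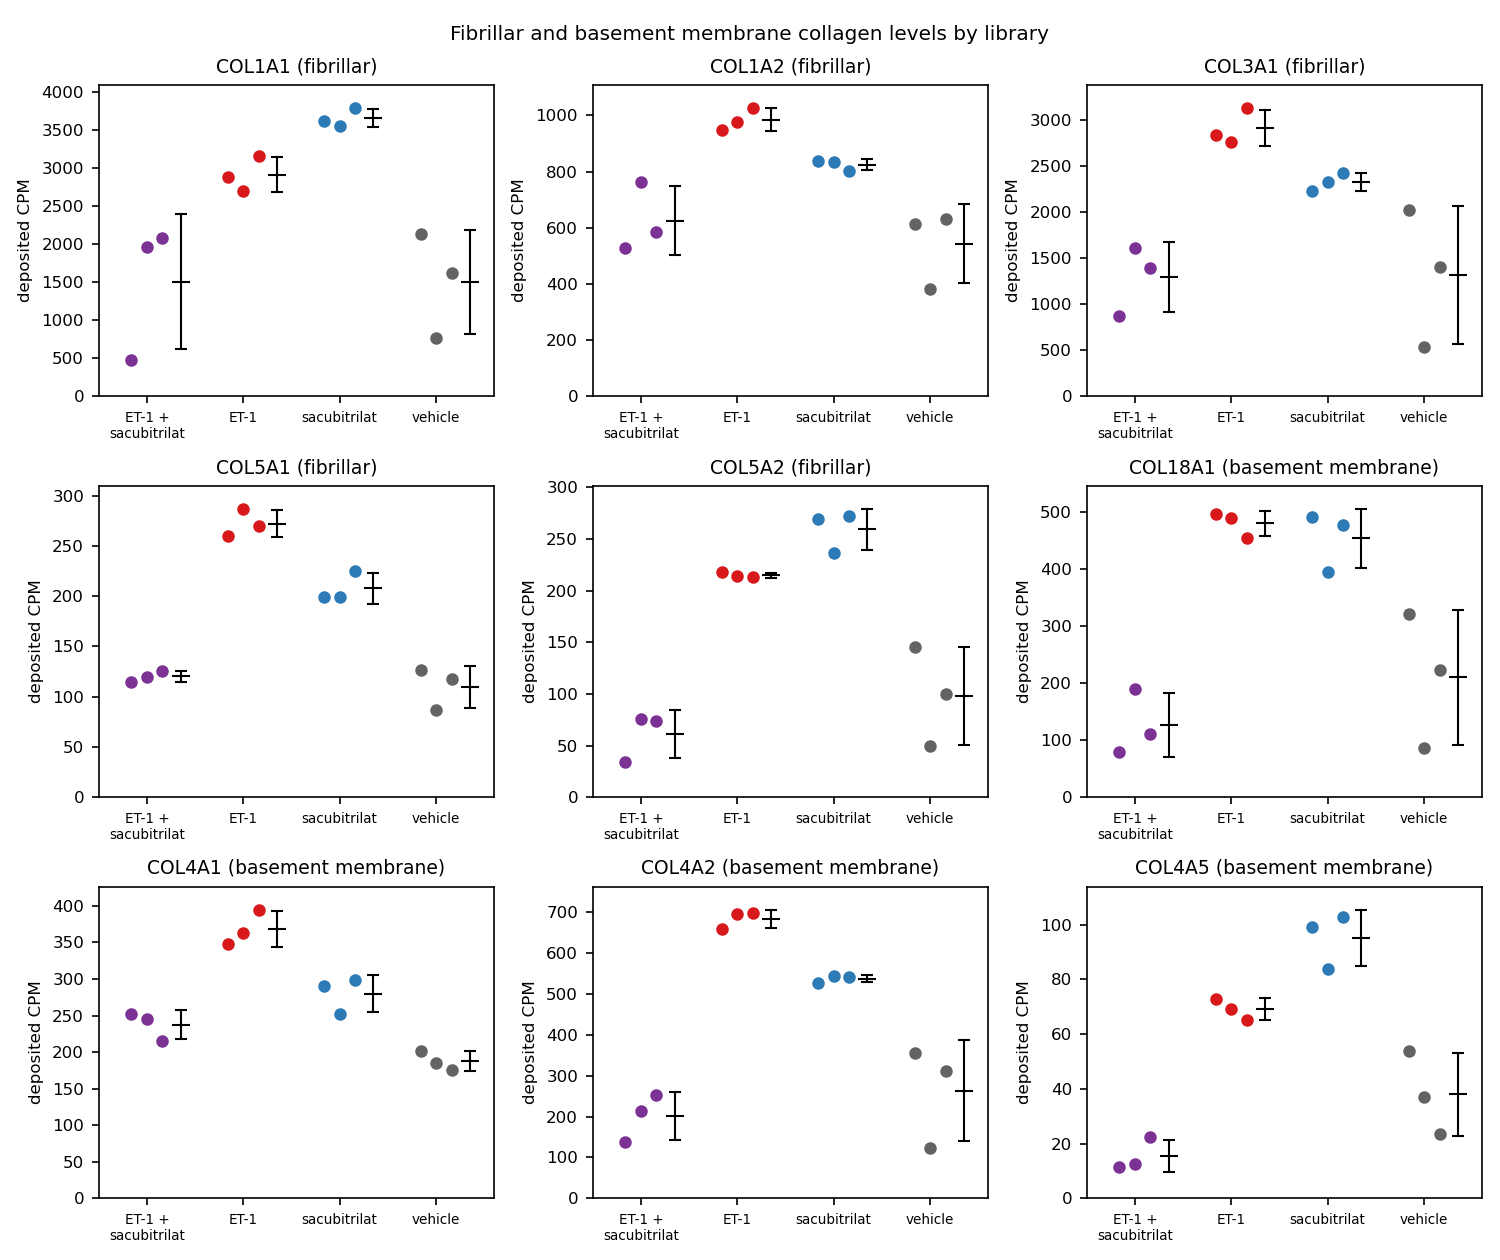
Deposited CPM in each library (points, 3 per group) with group mean and SD (bars) for 5 fibrillar collagens and for COL18A1, COL4A1, COL4A2 and COL4A5, each panel on a linear axis from 0. The endothelin-1 and sacubitrilat points lie above the combined and vehicle points, except in COL4A1, where combined libraries at 214.9 to 252.1 CPM overlap with sacubitrilat libraries at 251.5 to 298.0 CPM. Endothelin-1 and sacubitrilat points do not overlap with each other except in COL18A1.

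Type V collagen starts fibril assembly and sets fibril width, and its 2 tested chains did not order the groups alike. COL5A1 (chromosome 9, 134641774 to 134844843, plus strand) had 114.6, 119.7 and 126 CPM in the combined libraries, 259.9, 287 and 269.3 with endothelin-1, 199, 198.7 and 225.3 with sacubitrilat, and 126.2, 86.59 and 117.2 with vehicle. COL5A2 (chromosome 2, 189031896 to 189225312, minus strand) had 34.37, 75.57 and 74.1 CPM in the combined libraries, 217.8, 213.7 and 212.9 with endothelin-1, 269.5, 236.5 and 272.4 with sacubitrilat, and 145.1, 49.48 and 99.62 with vehicle. COL5A1 was highest with endothelin-1 and COL5A2 with sacubitrilat, in both cases with no overlap between those 2 groups. COL5A1 rose by 1.24 ± 0.20 against vehicle (edgeR adjusted p = 1.07e-05) and by 0.50 ± 0.11 against sacubitrilat (adjusted p = 0.00114), whereas COL5A2 rose by 0.91 ± 0.22 against vehicle (adjusted p = 0.00212) and stood at -0.16 ± 0.12 against sacubitrilat (adjusted p = 0.449). After thinning the COL5A1 difference from vehicle no longer passed (0.71, adjusted p = 0.126; range over 20 alternatives 1.35e-08 to 0.126). Its difference from sacubitrilat was lost after thinning (0.15, adjusted p = 0.944) and in limma-voom (0.0563), with adjusted p from 4.12e-06 over the alternatives. In the combined group against endothelin-1, COL5A1 fell by 1.21 ± 0.23 and COL5A2 fell by 1.75 ± 0.30 (edgeR adjusted p = 7.6e-05 and 2.12e-05). The COL5A2 share of the counts of both genes averaged 32.9 ± 8.58% in the combined group, 44.1 ± 1.46% with endothelin-1, 55.5 ± 1.73% with sacubitrilat and 45.3 ± 8.58% with vehicle, and the sacubitrilat libraries (54.3 to 57.5%) lay above all others.

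The remaining tested fibrillar members are best known from cartilage. COL2A1, the chain of type II and the main fibrillar collagen of cartilage, had 34.37, 94.46 and 103.7 CPM in the combined libraries, 218.3, 188.6 and 200.6 with endothelin-1, 288.6, 276 and 305.7 with sacubitrilat, and 123.1, 61.85 and 140.6 with vehicle. Sacubitrilat libraries were above all endothelin-1 libraries, with a log2 difference of -0.40 ± 0.12 for endothelin-1 against sacubitrilat (edgeR adjusted p = 0.0163), the call lost under the block. COL11A1, a chain of type XI that nucleates thin fibrils, had 11.46, 44.08 and 14.82 CPM in the combined libraries, 65.11, 63.78 and 86.07 with endothelin-1, 52.15, 44.15 and 47.1 with sacubitrilat, and 31.55, 0 and 29.3 with vehicle. It ran the other way from COL2A1, with endothelin-1 0.71 ± 0.15 above sacubitrilat (edgeR adjusted p = 0.0013) and 1.47 ± 0.38 above vehicle (adjusted p = 0.00372). The COL11A1 call against sacubitrilat was not made by limma-voom (adjusted p = 0.109; range over 19 alternatives 8.44e-05 to 0.109). In the combined group against endothelin-1, COL2A1 fell by 1.31 ± 0.28 (edgeR adjusted p = 0.000427, but 0.0510 after thinning; range over 20 alternatives 1.16e-07 to 0.0510) and COL11A1 fell by 1.49 ± 0.45 (adjusted p = 0.0098), although the combined values of COL11A1 rest on 10 counts in all. COL27A1 and COL11A2 passed in no comparison of this fit, with group means of 16.0 to 44.4 CPM and 3.01 to 9.15 CPM. COL27A1 passed in 2 of 19 alternatives for the combined group against endothelin-1 (adjusted p over the alternatives from 0.0389 to 0.448) and in 2 of 19 against sacubitrilat (from 0.0256 to 0.396). The summed level of 5 chondrocyte markers (SOX9, ACAN, MATN1, HAPLN1, COMP) ranged from 57.29 to 69.27 CPM in combined libraries, 44.78 to 70.37 with endothelin-1, 53.25 to 63.16 with sacubitrilat and 35.16 to 74.22 with vehicle, and these ranges overlapped. Of these ACAN was at 0 in the combined and sacubitrilat groups, MATN1 in the combined and vehicle groups, and COMP in the sacubitrilat and vehicle groups. Their part in COL2A1 was not tested.

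Of the 6 type IV genes, which lie in head-to-head pairs and encode the chains of the basement membrane network, 4 were tested. COL4A1 (ENSG00000187498, chromosome 13, 110148963 to 110307233, minus strand) and COL4A2 (ENSG00000134871, chromosome 13, 110305812 to 110513209, plus strand) encode the ubiquitous trimer of type IV and start back to back. The 126 bases between their RefSeq starts, chr13:110307158-110307283 on GRCh38.p14, plus strand, are shown because both genes are read outward from them and yet their log2 fold changes differed. Capitals mark matches on either strand to 4 short motifs: the GC box GGGCGG, known to be bound by SP1; the CCAAT box, spelled as named; the TATA box, searched as TATAAA; and the SMAD element, searched as CAGACA.
COL4A1-COL4A2 shared region: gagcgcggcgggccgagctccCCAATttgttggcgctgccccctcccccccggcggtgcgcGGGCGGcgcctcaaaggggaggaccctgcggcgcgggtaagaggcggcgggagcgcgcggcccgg
The region is 80.2% G and C, and holds 1 GC box and 1 CCAAT box, which do not overlap. In windows of the same length upstream of the start, 34.6% of 35116 RefSeq promoters hold a GC box and 21.1% a CCAAT box. The TATA and SMAD letters, held by 5.87 and 6.46% of promoters, are not in this window.

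COL4A1 had 252.1, 245.6 and 214.9 CPM in the combined libraries, 347.4, 363 and 394.9 with endothelin-1, 290.8, 251.5 and 298 with sacubitrilat, and 201.9, 185.5 and 175.8 with vehicle. COL4A2 had 137.5, 214.1 and 251.9 CPM in the combined libraries, 658.4, 696.9 and 697.3 with endothelin-1, 528.1, 544 and 541.2 with sacubitrilat, and 356.5, 123.7 and 310.6 with vehicle. Endothelin-1 libraries were above those of all other groups for both genes, and the combined libraries of COL4A1 stood above all vehicle libraries, which those of COL4A2 did not. Against vehicle, COL4A2 rose by 1.24 ± 0.22 with endothelin-1 and COL4A1 by 0.99 ± 0.18 on the log2 scale (edgeR adjusted p = 3.89e-05 and 8.34e-05). In the combined group against endothelin-1, COL4A2 fell by 1.75 ± 0.25 and COL4A1 fell by 0.68 ± 0.19 (edgeR adjusted p = 9.5e-07 and 0.00596). Against sacubitrilat, COL4A1 was higher with endothelin-1 by 0.51 ± 0.12 (edgeR adjusted p = 0.00207), a call lost after thinning (adjusted p = 0.399; range over 20 alternatives 1.07e-06 to 0.399). COL4A2 stood at 0.46 ± 0.17 (edgeR adjusted p = 0.0690), a difference that passed in 6 of 20 alternatives, RLE scaling among them (0.0305; range 3.75e-07 to 0.292). The COL4A2 share of the pair was 35.3, 46.6 and 54% in the combined libraries, 63.8 to 65.7% with endothelin-1, 64.5 to 68.4% with sacubitrilat and 63.8, 40 and 63.9% with vehicle, and the shares from 34 and 25 counts in the 2 shallowest libraries had exact 95% binomial intervals of 19.7 to 53.5% and 21.1 to 61.3%. In GENCODE v29 the 2 genes overlap at their starts, away from the 3′ ends that the libraries count, and 2 antisense genes lie in COL4A2. Whether overlapping genes shared reads was not tested.

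COL4A5 and COL4A6, on chromosome X, encode chains of a second type IV network and also start back to back, 379 bases apart in RefSeq. The 250 bases upstream of COL4A5, chrX:108439588-108439837 on GRCh38.p14, plus strand, are given for contrast with the chromosome 13 pair, with the same motifs in capitals.
COL4A5 upstream region: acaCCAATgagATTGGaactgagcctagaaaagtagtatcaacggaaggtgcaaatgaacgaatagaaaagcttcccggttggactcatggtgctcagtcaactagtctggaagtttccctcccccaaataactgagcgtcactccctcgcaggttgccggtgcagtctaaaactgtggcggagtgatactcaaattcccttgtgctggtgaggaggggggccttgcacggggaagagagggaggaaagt
It is 51.2% G and C, against a median of 58% over all promoters, and holds 2 CCAAT boxes, of which 1 is on the minus strand, which do not overlap, and none of the other motifs. At this length 32% of promoters hold a CCAAT box, 42.6% a GC box, 10.7% the TATA letters and 13.6% the SMAD letters. COL4A5 had 11.46, 12.6 and 22.23 CPM in the combined libraries, 72.97, 69.21 and 65.14 with endothelin-1, 99.15, 83.58 and 102.9 with sacubitrilat, and 53.64, 37.11 and 23.44 with vehicle. The 4 groups did not overlap and ran from the combined group at the bottom through vehicle and endothelin-1 to sacubitrilat, although the combined values rest on 6 counts. It fell by 2.16 ± 0.48 in the combined group against endothelin-1 (edgeR adjusted p = 0.000653) and rose by 1.10 ± 0.29 with sacubitrilat against vehicle (adjusted p = 0.00616; 0.0726 without vehicle replicate 3, range over 19 alternatives 0.00083 to 0.0726). For endothelin-1 against vehicle it stood at 0.74 ± 0.30 (edgeR adjusted p = 0.0719; RLE scaling 0.0490, range over 19 alternatives 0.0118 to 0.320). COL4A6 had 7.41 to 22.91 CPM in the combined libraries, 25.59 to 27.82 with endothelin-1, 29.17 to 37.38 with sacubitrilat and 12.37 to 35.16 with vehicle, and passed in no comparison of the fit reported here. It passed in 4 of 19 alternatives for the combined group against sacubitrilat (adjusted p over the alternatives from 0.0188 to 0.180) and in 3 of 18 for the interaction (from 0.0140 to 0.123).

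COL18A1 (chromosome 21, 45405137 to 45513720, plus strand), a basement membrane proteoglycan whose end fragment is endostatin, had 80.2, 188.9 and 111.2 CPM in the combined libraries, 495.6, 489.2 and 454.8 with endothelin-1, 489.9, 394.2 and 476.7 with sacubitrilat, and 321.8, 86.59 and 222.7 with vehicle. Both single-compound groups lay above all combined and vehicle libraries and overlapped with each other. It rose by 0.99 ± 0.22 with endothelin-1 against vehicle (edgeR adjusted p = 0.00096), fell by 1.86 ± 0.28 in the combined group against endothelin-1 (adjusted p = 2.47e-06), and stood at 0.20 ± 0.16 for endothelin-1 against sacubitrilat (adjusted p = 0.509, interval -0.11 to 0.50). Antisense genes and SLC19A1, on the opposite strand, overlap it. COL4A4, COL15A1 and COL4A3 stayed under 20 counts, with 12, 9 and 7 in all.

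Type VI collagen is assembled from 1 chain each of COL6A1, COL6A2 and COL6A3, and its filaments link cells to the matrix; loss of any of the 3 causes muscle disease. The 3 genes did not follow one another here. COL6A2 (ENSG00000142173, chromosome 21, 46098097 to 46132849, plus strand) lies 93046 bases downstream of COL6A1 (ENSG00000142156, 45981737 to 46005050) on the same strand. The 235 bases before the GENCODE v29 start of COL6A2, chr21:46097862-46098096 on GRCh38.p14, plus strand, are shown with the same motifs in capitals. They were picked because this gene ran against all other called collagens in edgeR where deep libraries were set against shallow ones.
COL6A2 upstream region: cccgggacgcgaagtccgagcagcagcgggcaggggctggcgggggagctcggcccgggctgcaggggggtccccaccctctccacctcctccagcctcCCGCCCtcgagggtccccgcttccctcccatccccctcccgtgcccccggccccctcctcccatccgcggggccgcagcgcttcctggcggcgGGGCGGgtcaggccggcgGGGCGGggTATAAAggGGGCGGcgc
It is 79.6% G and C and holds 4 GC boxes, 1 of them on the minus strand, and 1 TATA box that lies between the last 2 of them, with no overlap. At this length 42% of promoters hold a GC box and 10.1% the TATA letters. The CCAAT and SMAD letters, held by 30.9 and 12.8%, are not in this window. Of the 44 members 32 had a RefSeq promoter entry, and COL1A1, COL1A2, COL3A1, COL2A1, COL5A2, COL6A1, COL8A1, COL9A3, COL14A1, COL20A1, COL22A1 and COL6A5 had none.

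COL6A2 had 309.3, 806.1 and 941.1 CPM in the combined libraries, 193.1, 158.8 and 184.4 with endothelin-1, 375.3, 386.3 and 361 with sacubitrilat, and 662.6, 705.1 and 679.8 with vehicle. Endothelin-1 libraries were the lowest, without overlap with any other group, and vehicle libraries lay above both single-compound groups. It fell by 1.86 ± 0.20 with endothelin-1 against vehicle (edgeR adjusted p = 6.43e-09) and by 0.91 ± 0.19 with sacubitrilat against vehicle (adjusted p = 0.000626), and rose by 1.98 ± 0.21 in the combined group against endothelin-1 (adjusted p = 2.47e-09). Against sacubitrilat, endothelin-1 stood lower by a log2 difference of -0.95 ± 0.17 (edgeR adjusted p = 0.000103), a comparison of libraries of like total, and this call was lost in thinned libraries (adjusted p = 0.737; range over 20 alternatives 3.61e-12 to 0.737).

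COL6A1 had 0, 37.79 and 29.64 CPM in the combined libraries, 194.2, 210.3 and 203.5 with endothelin-1, 334.9, 300.4 and 387.1 with sacubitrilat, and 142, 74.22 and 82.04 with vehicle. The 4 groups did not overlap, and the combined group, with 10 counts in all, was lowest. It fell by 2.98 ± 0.41 in the combined group against endothelin-1 and fell by 3.62 ± 0.37 against sacubitrilat (edgeR adjusted p = 3.79e-07 and 1.14e-09). Endothelin-1 stood above vehicle by 0.87 ± 0.24 (edgeR adjusted p = 0.00585), a call lost without vehicle replicate 3 (0.0506) and after thinning (0.0688), with adjusted p from 0.000157 over the alternatives, and below sacubitrilat by a log2 difference of -0.64 ± 0.12 (adjusted p = 0.000202). The COL6A1 call against sacubitrilat was lost after thinning (adjusted p = 0.862) and in limma-voom (0.0778), with adjusted p from 6.95e-08 over the alternatives. COL6A3 had 0, 12.6 and 7.41 CPM in the combined libraries, 37.89, 35.28 and 37.51 with endothelin-1, 33.05, 29.96 and 44.54 with sacubitrilat, and 31.55, 37.11 and 46.88 with vehicle. Its levels overlapped among endothelin-1, sacubitrilat and vehicle, and the combined group, with 3 counts, fell by 2.25 ± 0.65 against endothelin-1 (edgeR adjusted p = 0.00658).

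**Figure D4:**
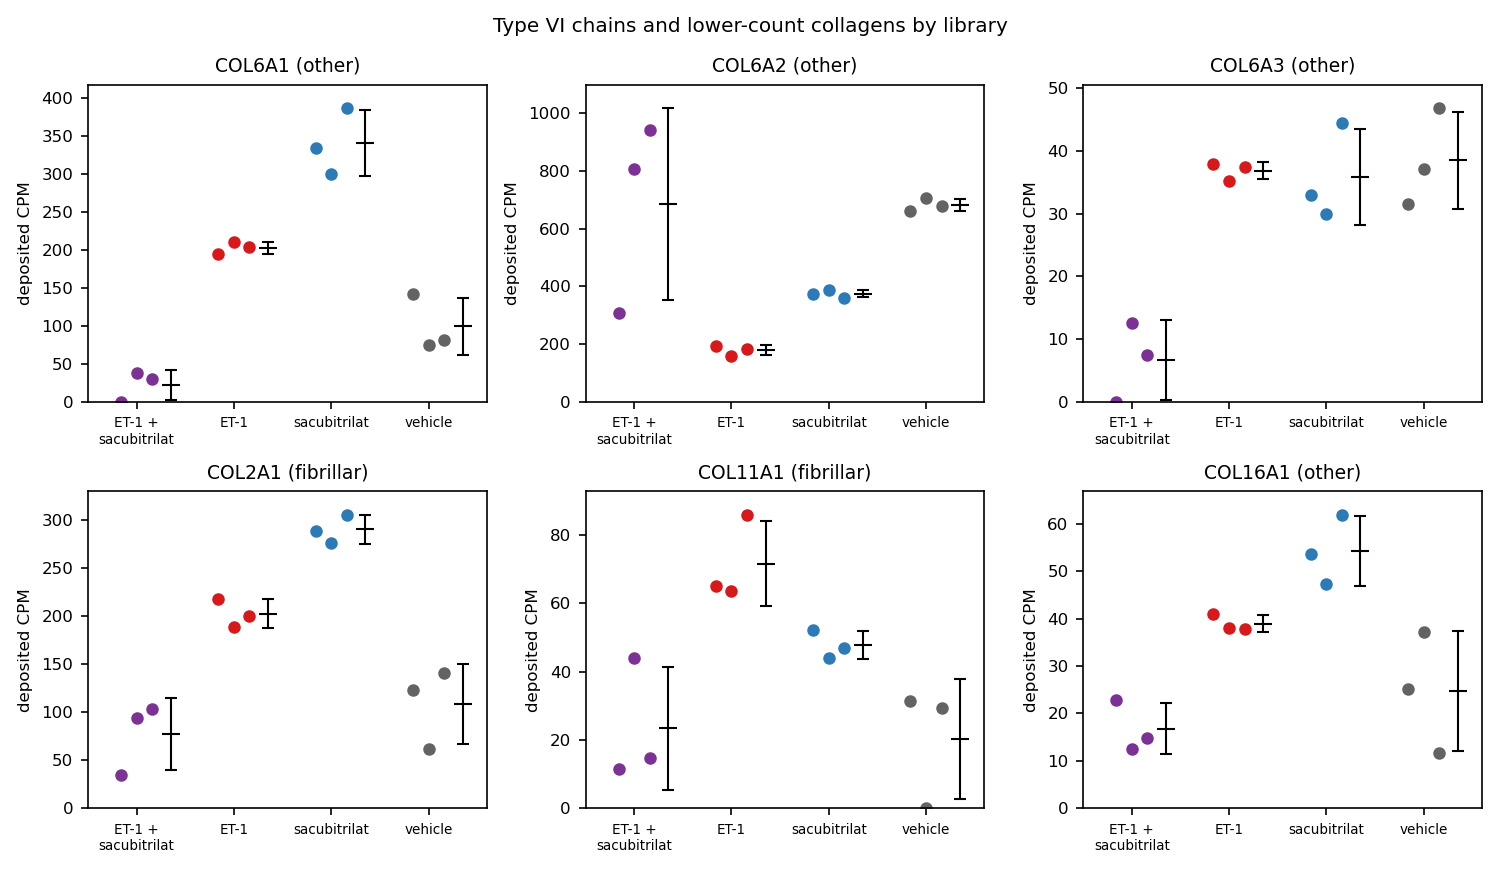
Deposited CPM in each library (points, 3 per group) with group mean and SD (bars) for the 3 type VI genes and for COL2A1, COL11A1 and COL16A1, each panel on a linear axis from 0. COL6A2 is lowest with endothelin-1, at 158.8 to 193.1 CPM, whereas COL6A1 is lowest in the combined group, at 0 to 37.79 CPM.

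The balance of the first 2 type VI chains differed between groups by more than its spread within them, and as a ratio within a library it does not depend on scaling. COL6A2 took 100, 95.5 and 96.9% of the counts of COL6A2 and COL6A1 in the combined libraries, 49.9, 43 and 47.5% with endothelin-1, 52.8, 56.3 and 48.3% with sacubitrilat, and 82.4, 90.5 and 89.2% with vehicle. The combined libraries lay above all vehicle libraries, and both lay above all endothelin-1 and sacubitrilat libraries, which overlapped. The exact 95% binomial interval of the library with the fewest counts, 27 for both genes in combined replicate 1, ran from 87.2 to 100%, and the highest of any endothelin-1 or sacubitrilat library ended at 59.6%. The groups with a high share are those of low library total, and whether the total had a part in it was not tested. In libraries thinned to 80000 counts COL6A2 gave -1.62 for endothelin-1 against vehicle and 1.51 for the combined group against endothelin-1 (edgeR adjusted p = 0.000606 and 0.000399), and passed both tests in all 20 alternatives. This pair and those below were chosen with their values known and are given as a description; their exact tests, counted above, could not go below p = 0.1 either.

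Other chain ratios were steadier within the deep groups. COL1A1 took 65.9 ± 16.0% of the type I pair in the combined group, 74.7 ± 1.11% with endothelin-1, 81.6 ± 0.831% with sacubitrilat and 72.0 ± 5.45% with vehicle. COL3A1 took 49.8 ± 12.9% of the counts of COL3A1 and COL1A1 in the combined group, 50.0 ± 0.485% with endothelin-1, 38.8 ± 0.735% with sacubitrilat and 45.4 ± 3.98% with vehicle. Endothelin-1 and sacubitrilat libraries thus held like summed fibrillar levels but different proportions of COL3A1 to COL1A1, without overlap. COL3A1 was at 2760 to 3131 CPM with endothelin-1 and 2225 to 2426 with sacubitrilat, and COL1A2 at 948 to 1028 and 802.8 to 837.3. COL1A1 ran the other way from both, at 2701 to 3159 and 3555 to 3794 CPM. The proportion of COL3A1 to COL1A1 therefore does not stand for types III and I as such. That of COL3A1 to COL1A2, the other type I chain, was not computed. A ratio within a library shows unequal change, not which gene changed.

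**Figure D5:**
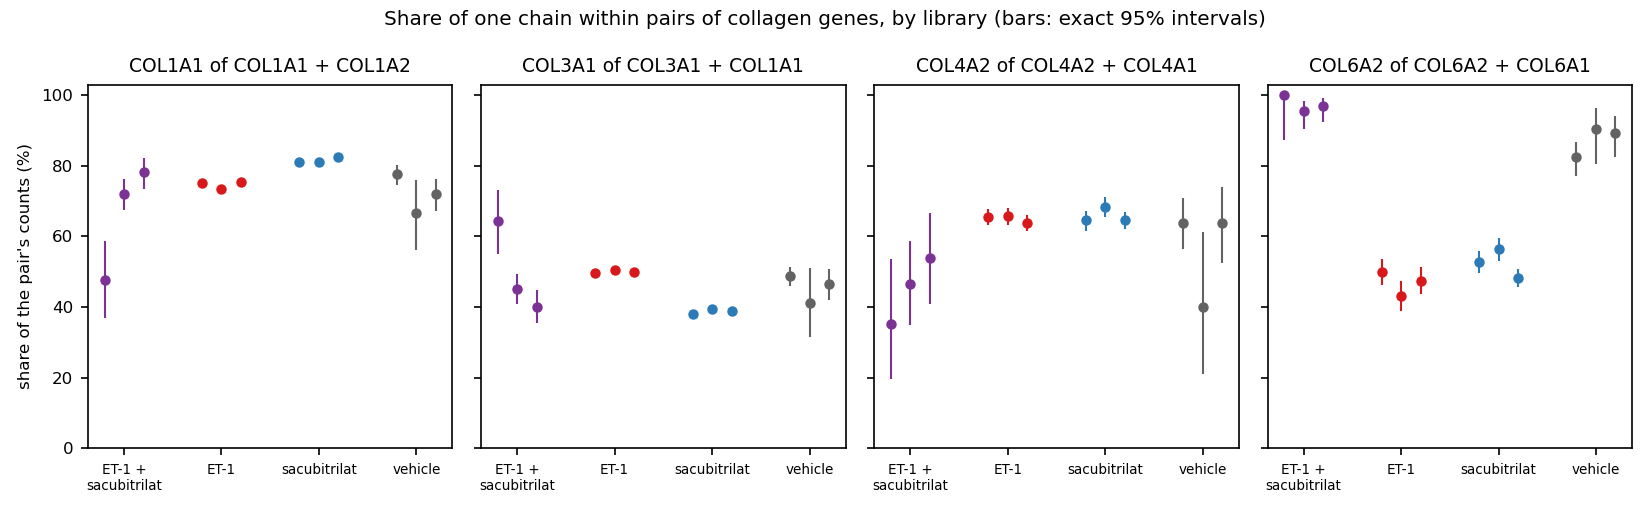
Share of 1 gene in the counts of a pair, in percent, for each library (points) with exact 95% binomial intervals (bars, counting error only). COL6A2 takes 82.4 to 100% of its pair in the combined and vehicle libraries and 43 to 56.3% in the endothelin-1 and sacubitrilat libraries.

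Among the other classes, COL16A1, a fibril-associated chain, had 12.6 to 22.91 CPM in the combined libraries, 37.8 to 40.97 with endothelin-1, 47.31 to 61.95 with sacubitrilat and 11.72 to 37.11 with vehicle. The combined group lay below both single-compound groups, at -1.34 ± 0.51 against endothelin-1 (edgeR adjusted p = 0.0407), a call lost with the replicate block (0.0539), in DESeq2 (0.0734), with the compared groups alone (0.0627) and without any 1 of 6 libraries, with adjusted p from 0.00945 to 0.121 over the alternatives. COL7A1, the anchoring fibril chain, had 7.41 to 34.37 CPM in the combined libraries, 19 to 20.21 with endothelin-1, 6.61 to 17.15 with sacubitrilat and 5.86 to 12.37 with vehicle. Endothelin-1 libraries lay above all sacubitrilat libraries, at 0.76 ± 0.25 (edgeR adjusted p = 0.0431). COL26A1 had 0 to 29.64 CPM in the combined libraries, 6.174 to 9.5 with endothelin-1, 12.62 to 27.65 with sacubitrilat and 12.37 to 35.16 with vehicle, and stood at -1.21 ± 0.31 for endothelin-1 against sacubitrilat (edgeR adjusted p = 0.00629), a call not made by DESeq2 (0.0965) or limma-voom (0.103; lowest over 13 alternatives 0.00175). For endothelin-1 against vehicle it passed as lower in 2 of 13 alternatives. These were limma-voom (-1.49, adjusted p = 0.0336) and edgeR on the compared groups alone (-1.51, adjusted p = 0.0376). Over the alternatives the adjusted p reached 0.485. COL8A1, a short-chain network collagen, and COL14A1, which decorates fibrils, passed in no comparison of this fit, with group means of 43.8 to 62.6 CPM and 8.77 to 19.8 CPM. COL14A1 passed in 1 of 13 alternatives for endothelin-1 against sacubitrilat (the compared groups alone; adjusted p over the alternatives from 0.0398 to 0.266).

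The 8 further members with at least 20 counts were too sparse for the test, which asked for about 12.6 CPM in enough libraries. They were COL9A3 (105 counts), COL21A1 (59), COL25A1 (56), COL12A1 (55.5), COL9A1 (42), COL23A1 (38), COL13A1 (31) and COL9A2 (24). COL12A1, which binds fibril surfaces, had 11.46, 25.19 and 14.82 CPM in the combined libraries, 6.174, 8.143 and 6.688 with endothelin-1, 3.672, 1.577 and 3.584 with sacubitrilat, and 0 in all 3 vehicle libraries. Its 3 groups with counts did not overlap, although the combined values rest on 7 counts in all. A count of 0 allowed up to 9.47, 37.1 and 17.6 CPM in the vehicle libraries taken 1 at a time. Together they held 568420 counts, and a bound for the pooled libraries was not computed. A difference of COL12A1 in the other groups from vehicle was not tested. COL23A1 was also at 0 with vehicle, and at 2.806 to 4.653 CPM with endothelin-1 and 3.154 to 5.141 with sacubitrilat. COL21A1 had 6.174 to 9.305 CPM with endothelin-1, above its 2.365 to 4.608 CPM with sacubitrilat. The 9 members of the other classes under 20 counts were COL17A1, COL6A6 and COL8A2 (5 each), COL28A1 (4.5), COL10A1 (3) and COL19A1, COL20A1, COL22A1 and COL6A5 (1 each), and the fibrillar COL24A1 and COL5A3 had 3 each, so every member had at least 1 count.

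Among genes that modify and fold collagen chains, most called members had the sign of most chains. Of 20 such genes 19 were tested, and 11 rose and none fell with endothelin-1 against vehicle (edgeR, median log2 fold change 0.70 against 0.10 over all genes), where 23.2% of all tested genes passed. In the combined group against endothelin-1, 11 fell and 2 rose, where 34.4% passed. By counts the leading called members were P4HB, a subunit of prolyl 4-hydroxylase (0.76 ± 0.19 with endothelin-1 against vehicle, -1.02 ± 0.21 in the combined group against endothelin-1), SERPINH1, the collagen chaperone HSP47 (1.23 ± 0.20 and -1.88 ± 0.24), and P3H1, a prolyl 3-hydroxylase (0.79 ± 0.24 and -1.34 ± 0.32). The 2 that rose in the combined group were FKBP10 (1.19) and FKBP14 (0.96), isomerases of the same compartment, named here although the rule for examples did not reach them. In endothelin-1 against sacubitrilat 3 of 19 passed, PLOD1 (0.70 ± 0.12), COLGALT2 (0.82 ± 0.14) and P4HA2 (0.53 ± 0.14), a share near the 11.2% of all tested genes that did.

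The counts of the next lists are to be read against the same shares of all tested genes, 23.2% for endothelin-1 against vehicle and 34.4% for the combined group against endothelin-1. The counts of 2 of 7 and 2 of 6 in the first comparison lie near its share. So does the count of 2 of 6 collagen receptors in the second. Outside the cell, 7 of 13 processing and crosslinking genes were tested, and LOXL1 and LOX, which crosslink fibres, rose with endothelin-1 against vehicle (edgeR, 1.30 ± 0.36 and 1.70 ± 0.33). Both fell in the combined group against endothelin-1 (-4.57 ± 0.79 and -4.00 ± 0.60), as did BMP1, which cleaves procollagen (-1.14 ± 0.40), while TLL1, of the same proteinase family, rose (3.07). Between libraries of like total, LOX was higher with endothelin-1 than with sacubitrilat by 1.97 ± 0.16 (edgeR adjusted p = 6.44e-12). Among 6 tested collagenases, inhibitors and uptake receptors, MRC2, which takes up collagen, rose with endothelin-1 against vehicle (1.03 ± 0.22) and MMP14, a membrane collagenase, fell (-1.09 ± 0.23); the combined group against endothelin-1 gave -2.04 ± 0.30 for MRC2, 1.66 ± 0.24 for MMP14 and -1.12 ± 0.33 for TIMP3, a matrix-bound inhibitor. Of 6 tested collagen receptors 3 rose with endothelin-1 against vehicle, ITGB1 (0.54 ± 0.19), ITGA1 (0.64 ± 0.23) and DDR1 (1.84 ± 0.30), and 2 of them, ITGB1 and DDR1, fell in the combined group against endothelin-1 (-1.95 ± 0.28 and -2.13 ± 0.38). Of 13 tested basement membrane partners 6 rose and 1 fell with endothelin-1 against vehicle, led by HSPG2 (perlecan, 1.28 ± 0.18), LAMB2 (lower, -0.59 ± 0.17) and LAMC1 (1.15 ± 0.23), and 7 fell and 1 rose in the combined group against endothelin-1, with LAMB2 the one that rose (1.39 ± 0.16). LAMB2 thus had, like COL6A2, the opposite sign to the other called members of its list in both comparisons. MMP14 and MRC2 had opposite signs in both. With endothelin-1 against vehicle they were the only called members of their list, so neither is an exception to it.

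Markers of other cell types moved with collagen levels in part. The 10 fibroblast markers summed to 275.0 to 559.5 CPM in the combined libraries, 522.3 to 556.1 with endothelin-1, 585.4 to 642.7 with sacubitrilat and 309.2 to 509.6 with vehicle, with FAP at 0 in the vehicle group. The 8 smooth muscle and pericyte markers summed to 240.6 to 466.0 CPM in the combined libraries, 1109 to 1160 with endothelin-1, 1056 to 1168 with sacubitrilat and 123.7 to 668.9 with vehicle, with KCNJ8 at 0 in the combined group, so like the fibrillar sum they were higher in the single-compound libraries. The 9 endoderm and epithelial markers ran the other way, at 481.7 to 618.7 CPM in the combined libraries, 58.93 to 88.89 with endothelin-1, 52.15 to 65.54 with sacubitrilat and 203.5 to 705.1 with vehicle. The 7 epicardial markers were at 56.68 to 91.66 CPM in the combined libraries, 44.06 to 61.07 with endothelin-1, 166.0 to 198.1 with sacubitrilat and 126.2 to 185.5 with vehicle. Cardiomyocyte markers summed to 23350 to 47540 CPM in the combined libraries, 20940 to 22390 with endothelin-1, 15390 to 15580 with sacubitrilat and 20340 to 27440 with vehicle. The sum does not stand for each gene. Of the 13, 8 passed as higher and 2 as lower with endothelin-1 against vehicle (edgeR), where 23.2% of all tested genes passed. Their median log2 fold change was 1.01, against 0.10 over all tested genes. In the combined group against endothelin-1, 4 passed as higher and 6 as lower, where 34.4% passed (median -0.43 against -0.23). The part of any cell type in the collagen differences was not tested. Endothelial markers were low in all groups. CDH5, KDR and VWF were at 0 in the combined and vehicle groups, CDH5 also with endothelin-1. ERG was at 0 in the combined and endothelin-1 groups, and TEK in the combined group. The 5 pluripotency markers summed to at most 22.91 CPM in any library.

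The tested collagens had annotated transcripts of 3033 to 10750 bases, with a median of 6488, and 46.7 to 67.2% G and C. Across the 22 genes, which share libraries and are not independent, the log2 fold change of endothelin-1 against sacubitrilat followed transcript length with a Spearman rho of 0.545, and the same relation was 0.345 for endothelin-1 against vehicle and -0.263 for the combined group against endothelin-1. For the share of G and C rho lay between -0.107 and 0.234 over all comparisons.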

How the data were processed

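The 12 libraries were used, 3 cultures in each of 4 groups, grouped by titles, library names and treatment labels. Per the labels' protocols, these are stranded 3′-end-counting libraries, primed with poly(dT) plus a unique molecular identifier and read from 1 end. The submitters' processing notes name fastp 0.24.0, featureCounts and GRCh38; aligner, annotation release, handling of identifiers and strand setting: not given in the sources used here. Values deposited by the authors are estimated counts for each gene, of which 20.6% of nonzero values were not whole (10 of 528 collagen values), and the deposited CPM equals count over library total (largest difference 2.91e-11). CPM in the text are these.

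After 92 spike-in rows were left out, counts were rounded and all 12 libraries fitted together by group alone, with TMM scaling and filterByExpr, in the quasi-likelihood test of edgeR 4.0.16 (R 4.3.3), with Benjamini-Hochberg adjustment over 11203 genes and a threshold of 0.05. Shares carry exact (Clopper-Pearson) 95% binomial intervals for counting error only. Coordinates are from GENCODE v29, sequences from RefSeq on GRCh38.p14. The fits were checked on simulated counts. The members, classes, gene lists and tests were chosen with earlier results of these data known. The rule named each member with at least 20 counts, and up to 3 called genes per partner list by counts.

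Libraries with the same replicate number might be paired, as the labels give the number under a batch tag. Deviations from group means correlated at -0.146 to 0.0396 over 18 same-number pairs, none above 0.1. The tests carry no block, and the blocked value stands beside a result where it changes the call. Alternatives were RLE scaling, no filter, DESeq2 1.42.0, limma-voom (limma 3.58.1), a replicate block, the compared groups alone, thinning to 80000 counts, each library left out, the top member of a class left out and, chosen after seeing the data, the 2 libraries under 100000 counts left out. Plots used matplotlib 3.10.9 (Python 3.11.15).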

Additional observations from a re-analysis of the deposited data

Results flagged for a closer look

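The 15 collagens below passed an edgeR test of the interaction (adjusted p under 0.05), that is, the difference between endothelin-1 and no endothelin-1 was not the same with sacubitrilat as without it; 46.1% of all tested genes passed this test. The contrast adds the combined and vehicle libraries and subtracts the endothelin-1 and sacubitrilat libraries, so it sets all shallow libraries against all deep ones, and the interaction and the library total cannot be told apart. COL6A2 was the one with a positive value, 2.89 on the log2 scale. Type VI and basement membrane genes gave -4.49 for COL6A1, -2.16 for COL6A3, -3.26 for COL4A5, -2.65 for COL18A1, -2.53 for COL4A2 and -1.16 for COL4A1. Among fibrillar genes the values were -2.82 for COL5A2, -2.52 for COL2A1, -2.25 for COL11A1, -2.11 for COL1A1, -1.95 for COL5A1, -1.86 for COL3A1 and -1.15 for COL1A2, and the fibril-associated COL16A1 gave -2.52. The median over the 22 tested members was -1.91, against -0.43 over all tested genes. Of the 15 calls, COL6A3 was lost without combined replicate 1 (-1.90, adjusted p = 0.0505) and without both libraries under 100000 counts (-1.76, adjusted p = 0.0700; range over 18 alternatives 0.00215 to 0.0700), and the other 14 held under all alternatives in which the gene was tested.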

How the results depend on the processing

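No called collagen changed direction under any alternative run. Calls that held in every alternative testing the gene numbered 8 of 12 for endothelin-1 against vehicle, 11 of 15 for the combined group against endothelin-1, 4 of 10 for sacubitrilat against vehicle, 10 of 11 for the combined group against sacubitrilat and 0 of 8 for endothelin-1 against sacubitrilat. Thinning to 80000 counts left 7, 9, 4, 7 and 0 calls in that order, each of 11 collagens still tested, where 25.2, 43.6, 21.6, 44.6 and 0.996% of all tested genes passed. Without a filter the combined group against sacubitrilat gave 19 calls of 44 (12.3% of all genes) and against vehicle 1 (COL6A1), which DESeq2 (1) and leaving out the 2 libraries under 100000 counts (1) also called. Against vehicle these fits called 0.152, 1.39 and 0.959% of all tested genes in that order. Endothelin-1 against sacubitrilat gave 2 calls in limma-voom, 15 with the compared groups alone and 14 without those 2 libraries; the cause was not tested. Leaving out 1 library gave 10 to 13 calls for endothelin-1 against vehicle, 12 to 16 for the combined group against endothelin-1, 8 to 13 for sacubitrilat against vehicle, 10 to 16 for the combined group against sacubitrilat, 0 to 2 against vehicle (2 without vehicle replicate 2, COL18A1 and COL6A1), 5 to 13 for endothelin-1 against sacubitrilat (13 without vehicle replicate 2; 5 without endothelin-1 replicate 2 or 3, or without sacubitrilat replicate 3) and 15 to 16 for the interaction. These fits tested 18 to 27 collagens. The share of all tested genes called moved as well. In that order it was 12.9 to 29.8, 21.9 to 42.5, 10.4 to 25.4, 22.7 to 41.8, 0.0512 to 1.62, 9.14 to 12.2 and 36.4 to 52.8%. The interaction was not run with compared groups alone. The replicate block gave 11, 14, 10, 11, 0, 6 and 15 calls for endothelin-1 against vehicle, the combined group against endothelin-1, sacubitrilat against vehicle, the combined group against sacubitrilat, the combined group against vehicle, endothelin-1 against sacubitrilat and the interaction, and changed no call beyond the 4 given above (COL1A1, COL16A1, COL2A1, COL7A1). With the block 21.0, 32.1, 17.2, 32.5, 0.0893, 8.6 and 43.9% of all tested genes passed in that order. Without COL1A1 the fibrillar sum averaged 2227 CPM in the combined group, 4697 with endothelin-1, 3997 with sacubitrilat and 2247 with vehicle, and the fibrillar share 60.3% in the combined group, 67.7% with endothelin-1, 62.9% with sacubitrilat and 55.1% with vehicle. Without COL4A2 the basement membrane sum was 405.9 CPM in the combined group, 947.6 with endothelin-1, 864.3 with sacubitrilat and 463.5 with vehicle. Without COL6A2 the sum of other members was 192.7 CPM in the combined group, 424.3 with endothelin-1, 579.6 with sacubitrilat and 295.9 with vehicle. Depth limits the combined and vehicle groups most, as several of their values rest on 10 or fewer counts. Among tested members these were COL6A1, COL11A1, COL4A5, COL16A1, COL6A3, COL27A1, COL26A1, COL7A1, COL4A6, COL11A2 and COL14A1 in the combined group. In the vehicle group they were COL14A1, COL7A1 and COL11A2.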
